A study of Saccharomyces cerevisiae with 109 samples.

Results

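The genes described here encode the isozymes of lower glycolysis in the budding yeast Saccharomyces cerevisiae: TDH1 (YJL052W), TDH2 (YJR009C), TDH3 (YGR192C), GPM1 (YKL152C), GPM2 (YDL021W), ENO1 (YGR254W), ENO2 (YHR174W), CDC19 (YAL038W) and PYK2 (YOR347C), together with PFK26 (YIL107C), which acts higher in the pathway as a regulator. They were taken by name from the annotation of the arrays, but with earlier results of these data known. They make up 10 of the 6297 genes and open reading frames on the arrays. Their expression was followed in 109 two-color DNA microarrays. Of these, 106 compared stressed cells, or cells released from stress, with cells of the same strain before the shift, and 3 compared unstressed rpd3Δ cells directly with unstressed wild type. All values are the deposited log2 ratios of one sample over the other, so a difference between strains under stress is a difference in the size of the change and not in the transcript level.

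Glycolysis splits glucose into pyruvate, and in yeast several of its lower steps are carried out by more than 1 enzyme encoded by separate genes. Glyceraldehyde-3-phosphate dehydrogenase is encoded by TDH1, TDH2 and TDH3, phosphoglycerate mutase by GPM1, enolase by ENO1 and ENO2, and pyruvate kinase by CDC19 and PYK2. One copy usually serves fast growth on glucose, as TDH3, GPM1, ENO2 and CDC19 do, while others are known from slow growth, nonfermentable carbon sources or stress, as TDH1, ENO1 and PYK2 are. GPM2 encodes a homolog of the mutase whose enzymatic role is uncertain, PYK2 encodes a pyruvate kinase that does not depend on the allosteric activator of Cdc19p, and PFK26 encodes the kinase that makes the bisphosphate activator of phosphofructokinase.

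Wild type was BY4741, a MATa strain with his3, leu2, met15 and ura3 deletions, and the deletion strains in this background lacked the histone deacetylase Rpd3p (rpd3Δ), the Rpd3p Large complex subunit Pho23p (pho23Δ), the Rpd3p Small complex subunit Rco1p (rco1Δ), the repressor Ume6p (ume6Δ), both stress transcription factors Msn2p and Msn4p (msn2Δ msn4Δ), or all of Msn2p, Msn4p and Rpd3p (triple mutant). NSY429 carries deletions of both histone H3 and H4 gene pairs and lives on a plasmid copy of the wild-type genes. H4KQ differs from it by a plasmid whose histone H4 has 4 tail lysines replaced by glutamine, and both were grown in SC medium lacking tryptophan. In plasmid experiments rpd3Δ cells carried the empty vector pRS415, a wild-type copy (pRS-RPD3) or a copy with both active-site histidines replaced (pRS-rpd3H150:151A), in SC medium lacking leucine, and all other cells grew in rich YPD medium. Heat shock was a shift from 25 to 37°C, stress relief the reverse shift of cells grown at 37°C, and H2O2 (0.4 mM) or NaCl (0.75 M by the channel labels) was added to cultures. The rpd3Δ reference of the second heat shock series was labelled as grown at 30°C. Trichostatin A, an inhibitor of histone deacetylases, was used at 10 µM in DMSO during a separate heat shock series, with DMSO alone as its control. The design held 9 wild-type and 9 rpd3Δ heat shock arrays in 2 series, 3 with DMSO, 3 with trichostatin A and 3 of plasmid strains. It held 12 wild-type H2O2 arrays, 7 each of rpd3Δ, pho23Δ and rco1Δ, 4 of ume6Δ, 3 each of NSY429, H4KQ, msn2Δ msn4Δ and the triple mutant, and 2 of plasmid strains, and 7 arrays of each of wild type and rpd3Δ in both NaCl and stress relief.

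Each array measured 4288 to 6115 genes, and replicate arrays of a group correlated over all genes between 0.17 and 0.96 in 72 pairs. The SD over genes of a single array ranged from 0.36 to 1.44 and was not the same in all strains: at 30 min of H2O2 it was 0.99 to 1.44 in wild type, 0.85 to 1.03 in rpd3Δ, 0.86 to 0.96 in pho23Δ and 0.76 to 0.97 in the triple mutant. Strain differences were therefore also computed after scaling each array to a common spread. Because numerator and denominator came from the same strain, the deleted gene is no check of the label, and RPD3 was measured on 15 of 34 arrays of strains lacking it, UME6 on 0 of 4 and MSN4 on 6 of 6. In 2 wild-type arrays the members stood apart. At 60 min of the first NaCl series CDC19 read 1.13, against −0.81 at 60 min of the second, and at 40 min of the first stress relief series TDH2 read −2.32 and GPM1 −2.47, against −0.67 and −1.12 at 40 min of the second. The NaCl array did not measure GPM2 or PFK26, the members called in wild-type NaCl below. Leaving it out therefore does not test those calls. With and without these arrays, results are given for the strain differences of TDH1, TDH2, GPM1, CDC19 and PFK26 in NaCl. The same holds in stress relief for the wild-type means of GPM2, PFK26, GPM1, PYK2, TDH1 and TDH2. There the strain difference of GPM2 is also given both ways.

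The members were not measured equally often. PFK26 and GPM2 gave values on 101 and 102 of 109 arrays, TDH1 and GPM1 on 100 each, CDC19 on 96, TDH2 on 94, PYK2 on 89, ENO2 on 78, ENO1 on 68 and TDH3 on 60. Genes with values on fewer than 80% of the arrays in a fit were left untested there, so TDH3 and ENO1 were tested in stress relief alone. TDH1, TDH2 and TDH3 are close paralogs, as are ENO1 and ENO2, and the sequences of their array probes were not used here, so the separate values of these copies are uncertain with respect to each other.

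GPM2, PYK2 and PFK26 were called higher in at least 1 wild-type stress, PYK2 in H2O2 alone. PYK2 was not called in NaCl and not tested in heat shock, and PFK26 has no growth isozyme among the members. The ratios of TDH1 and ENO1 mostly lay close to those of TDH2, TDH3 and ENO2 on the same array, with the uncertainty about close paralogs given above.

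**Figure D1:**
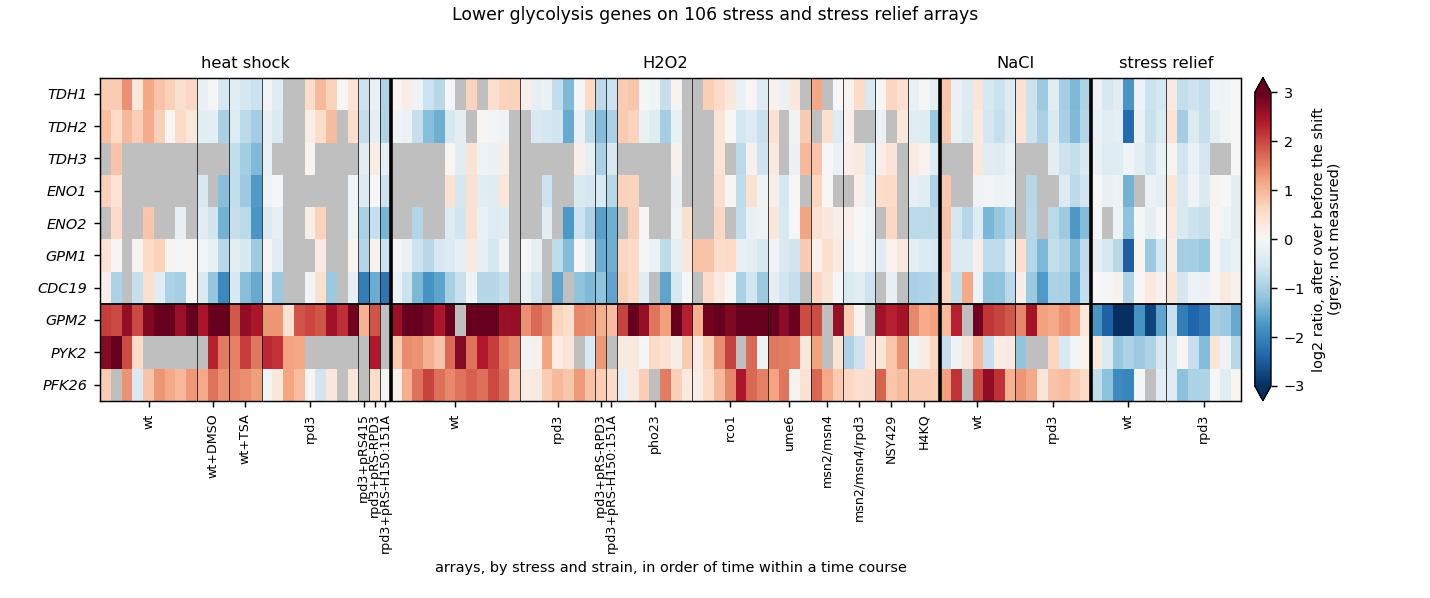
Deposited log2 ratios of the 10 genes (rows) on the stress and stress relief arrays (columns, grouped by stress and strain), on a color scale from lower to higher than before the shift, with gray for not measured. GPM2 was above 0 on every wild-type heat shock, H2O2 and NaCl array that measured it and below 0 on every stress relief array, whereas TDH1, TDH2, TDH3, ENO1, ENO2 and GPM1 stayed nearer to 0.

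GPM2, the mutase homolog, had the highest mean ratio of the members tested in wild-type heat shock, H2O2 and NaCl. In heat shock its 9 wild-type ratios ran from 1.98 to 3.33 with a median of 2.63, in H2O2 the 11 measured ratios ran from 2.43 to 3.71 with a median of 3.00, and in NaCl the 6 measured ratios ran from 0.96 to 2.89 with a median of 2.09. All of these were above 0, and the lowest was the 15 min NaCl array. The mean over the heat shock time points was 2.68 (SE 0.22, limma adjusted p = 8.58e-05), and GPM2 was 1 of 4 members tested that passed, where 21.3% of 4547 genes did. Without the second heat shock series the estimate was 2.17 and no longer passed (limma adjusted p = 0.0319, against a threshold of 0.01). At 30 min of H2O2 the mean was 3.18 ± 0.46 (SD, n = 7), or 9.04-fold (limma adjusted p = 6.9e-16). There 4 of 7 members tested passed, GPM2, PYK2 and PFK26 higher and CDC19 lower, and the count is to be read against 67.7% of all 5173 genes tested. In NaCl the mean was 2.00 (SE 0.19, limma adjusted p = 0.00266), and 2 of 8 members tested passed, GPM2 and PFK26, against 27.4% of 5003 genes. The NaCl call of GPM2 was lost without the first (adjusted p = 0.0274) or the second (adjusted p = 0.0185) wild-type series in limma.

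GPM1, which encodes the main phosphoglycerate mutase, did not pass in H2O2 or NaCl and was not tested in heat shock. At 30 min of H2O2 its 7 wild-type ratios ran from −0.62 to 0.30 with a median of −0.26, and in NaCl the 7 ratios ran from −0.77 to 0.76 with a mean over time points of −0.16. The ratio of GPM2 exceeded that of GPM1 on all 8 heat shock, 10 H2O2 and 6 NaCl arrays of wild type that measured both genes.

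The change of GPM2 at 30 min of H2O2 was smaller in rpd3Δ and the triple mutant, which both lack Rpd3p, than in wild type. Wild type had ratios from 2.59 to 3.71 with a median of 3.29, rpd3Δ had 1.49, 1.43 and 1.40, and the triple mutant had 0.76 and 0.07 on the 2 arrays that measured it. Neither of these mutants overlapped wild type. In rpd3Δ the change of GPM2 was lower than in wild type by −1.74 on the log2 scale (SE 0.27, limma adjusted p = 3.97e-05), and PYK2 was the other of the 7 members tested that passed, with 22.9% of 5164 genes called. The difference was −1.80 within the time course arrays and −1.74 within the single arrays. In the triple mutant the difference from wild type was −2.76 (SE 0.31, limma adjusted p = 5e-07), with 3 of 7 members called, all lower, against 30.7% of 5080 genes. All strain comparisons with BY4741 share the 8 wild-type arrays.

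In msn2Δ msn4Δ cells GPM2 read 1.96 and 2.62, which overlapped the wild-type range, and the difference of −0.89 did not pass (limma adjusted p = 0.0929). The triple mutant differed from msn2Δ msn4Δ cells by −1.87 in GPM2 (limma adjusted p = 0.00344), the only member of 7 called in that comparison, where 9.24% of 5054 genes were called. That comparison rests on 2 arrays of each strain. Against rpd3Δ alone the triple mutant differed by −1.02 in GPM2, and 0 of 7 members passed in limma, although 3 had an unadjusted p under 0.05, with 0.256% of 5073 genes called.

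The other subunits of Rpd3p complexes gave a mixed picture for GPM2. In pho23Δ the ratios were 2.61, 3.10 and 2.34, in rco1Δ 3.40, 3.98 and 4.21, and in ume6Δ 3.16, 2.69, 2.98 and 1.95. All 3 sets overlapped the wild-type range, with rco1Δ reaching the highest GPM2 ratio at 30 min, and none differed from wild type past the threshold. In rco1Δ and in ume6Δ, 0 of 7 members passed in limma and 2 in each had an unadjusted p under 0.05, where 0.505% of 5146 genes and 0.735% of 5168 genes were called. The H4KQ ratios of GPM2 were 1.43, 1.11 and 1.20 and those of its parent NSY429 were 2.53, 2.33 and 2.49. They did not overlap, but the difference of −1.20 just missed the threshold (limma adjusted p = 0.0555), and 0 of 5 members tested passed in limma, with GPM2 the 1 member at an unadjusted p under 0.05 and 1.24% of 4763 genes called. With each array centered on its median GPM2 did pass in that comparison.

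**Figure D2:**
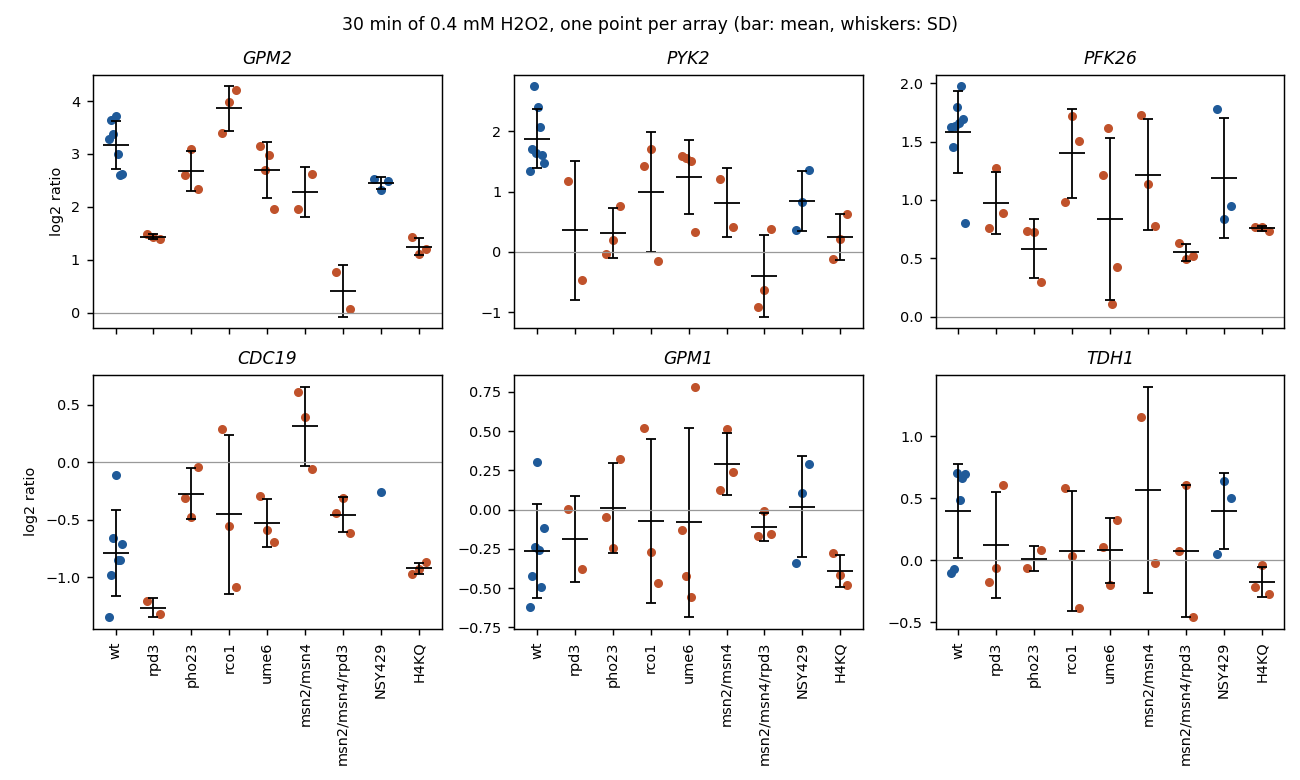
Log2 ratio at 30 min of H2O2 for 6 members (panels) in each strain (horizontal axis), with 1 point per array, a bar at the mean of the strain and whiskers of 1 SD. For GPM2 all 3 rpd3Δ arrays (1.40 to 1.49) and both triple mutant arrays (0.07 and 0.76) lie below the lowest wild-type array (2.59).

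PYK2, the minor pyruvate kinase, rose in H2O2. Its 8 wild-type ratios at 30 min ran from 1.34 to 2.74 with a median of 1.67, and the mean was 1.87 ± 0.49 (SD, n = 8), or 3.66-fold (limma adjusted p = 6.03e-09). Over all H2O2 time points 12 of 12 wild-type arrays were above 0, the lowest being 0.78 at 10 min. Of the 2 heat shock series of wild type and rpd3Δ, PYK2 was measured in the first alone. Wild-type ratios there were 2.76, 3.12, 1.95 and 0.56 at 5, 15, 30 and 60 min, and rpd3Δ ratios 2.24, 2.17, 1.21 and 1.16. PYK2 was thus high early and lower later in both strains, and it was not tested. In the separate DMSO series it read 2.34 and 1.56 at 15 and 30 min. In NaCl the wild-type PYK2 ratio was −0.69 at 15 min and 0.97 by 90 min of the first series, and −0.70 at 30 min and 0.28 by 60 min of the second. The lowest ratios were those of the first time point of each series, and the gene did not pass in NaCl (limma adjusted p = 0.0736).

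The H2O2 change of PYK2 was smaller in 3 mutant strains. The pho23Δ ratios at 30 min were −0.03, 0.20 and 0.76, the rpd3Δ ratios 1.17 and −0.46 on the 2 arrays that measured it, and those of the triple mutant −0.92, −0.63 and 0.37. All of these lay below the lowest wild-type array. The differences from wild type were −1.56 (SE 0.39) in pho23Δ, −1.52 (SE 0.46) in rpd3Δ and −2.26 (SE 0.39) in the triple mutant, with limma adjusted p of 0.00671, 0.0177 and 8.68e-05. In pho23Δ, 2 of 7 members tested passed, PYK2 and PFK26, both lower, against 17.9% of 5147 genes. The rpd3Δ call rests on arrays that differed: within the time course arrays the difference was −0.17 and within the single arrays, with 1 rpd3Δ array, −2.41. After scaling each array to a common spread the PYK2 difference no longer passed in rpd3Δ (−1.09, limma adjusted p = 0.117) or in pho23Δ (−1.20, adjusted p = 0.0549). Without replicate 1 of pho23Δ it was −1.39 (limma adjusted p = 0.0584). PYK2 in msn2Δ msn4Δ (0.41 and 1.22) also lay below wild type, without passing the test.

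CDC19, the main pyruvate kinase, moved the other way in H2O2. At 30 min its 7 wild-type ratios ran from −1.34 to −0.11 with a median of −0.85, and over the time course it fell from −0.18 at 10 min to −1.78 by 40 min, with −1.58 at 60 min. All 11 wild-type H2O2 arrays that measured CDC19 were below 0. The 30 min mean was −0.78 ± 0.37 (SD, n = 7), or 0.581-fold (limma adjusted p = 8.02e-06). In msn2Δ msn4Δ cells the ratios were −0.06, 0.39 and 0.62, all above the wild-type range. The difference of 1.10 (SE 0.24) passed (limma adjusted p = 0.00712), the only call among 7 members tested, where 4.48% of 5139 genes were called. Without replicate 2 of msn2Δ msn4Δ it was 1.06 (limma adjusted p = 0.0597).

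PFK26, the regulatory kinase, rose in H2O2 and NaCl. At 30 min of H2O2 the 8 wild-type ratios ran from 0.80 to 1.98 with a median of 1.65, and in NaCl the 6 measured ratios ran from 1.05 to 2.65. The mean was 1.58 ± 0.35 (SD, n = 8), or 2.99-fold, in H2O2 (limma adjusted p = 3.97e-11) and 1.77 (SE 0.11) over the NaCl time points (limma adjusted p = 0.000491). In wild-type heat shock it averaged 0.97 (SE 0.19) and did not pass (limma adjusted p = 0.0287, threshold 0.01), with 1 ratio below 0, −0.44 at 60 min of the first series.

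The pho23Δ ratios of PFK26 at 30 min of H2O2 were 0.73, 0.72 and 0.29 and those of the triple mutant were 0.49 to 0.63, all below the lowest wild-type array. The differences from wild type were −1.0 in pho23Δ (limma adjusted p = 0.00871) and −1.03 in the triple mutant (limma adjusted p = 0.00364). The pho23Δ difference was −0.90 within the time course arrays, where pho23Δ and wild type had opposite dye assignments, and −1.06 within the single arrays. It lost its call without replicate 3 of pho23Δ (−0.85, limma adjusted p = 0.0667) and after scaling of the arrays (−0.64, adjusted p = 0.0654). In rpd3Δ the ratios of 0.76, 0.89 and 1.27 overlapped wild type, and the difference of −0.61 did not pass (limma adjusted p = 0.1).

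The time courses showed when wild type and rpd3Δ separated. In H2O2 the wild-type GPM2 ratios at 10, 20, 30, 40 and 60 min were 2.57, 3.37, 3.29, 2.84 and 2.43. The rpd3Δ ratios were 1.36, 1.71, 1.49, 0.66 and 0.52, lower at 5 of 5 times and farthest from wild type at 40 min. In pho23Δ they were 2.02, 3.04, 2.61, 1.60 and 1.22, which also fell short of wild type at 5 of 5 times with the widest gap at 40 and 60 min. In rco1Δ they were 1.08, 2.89, 3.40, 2.78 and 2.99, far below wild type at 10 min and above it at 60 min. PYK2 was lower than in wild type at 5 of 5 times in both rpd3Δ (by 0.17 to 1.29 on the log2 scale) and pho23Δ. The dyes of the pho23Δ and rco1Δ courses were assigned the other way from those of wild type and rpd3Δ. Strain and dye therefore cannot be told apart when either course is set beside wild type. Each of these courses is 1 culture per strain and was not tested.

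**Figure D3:**
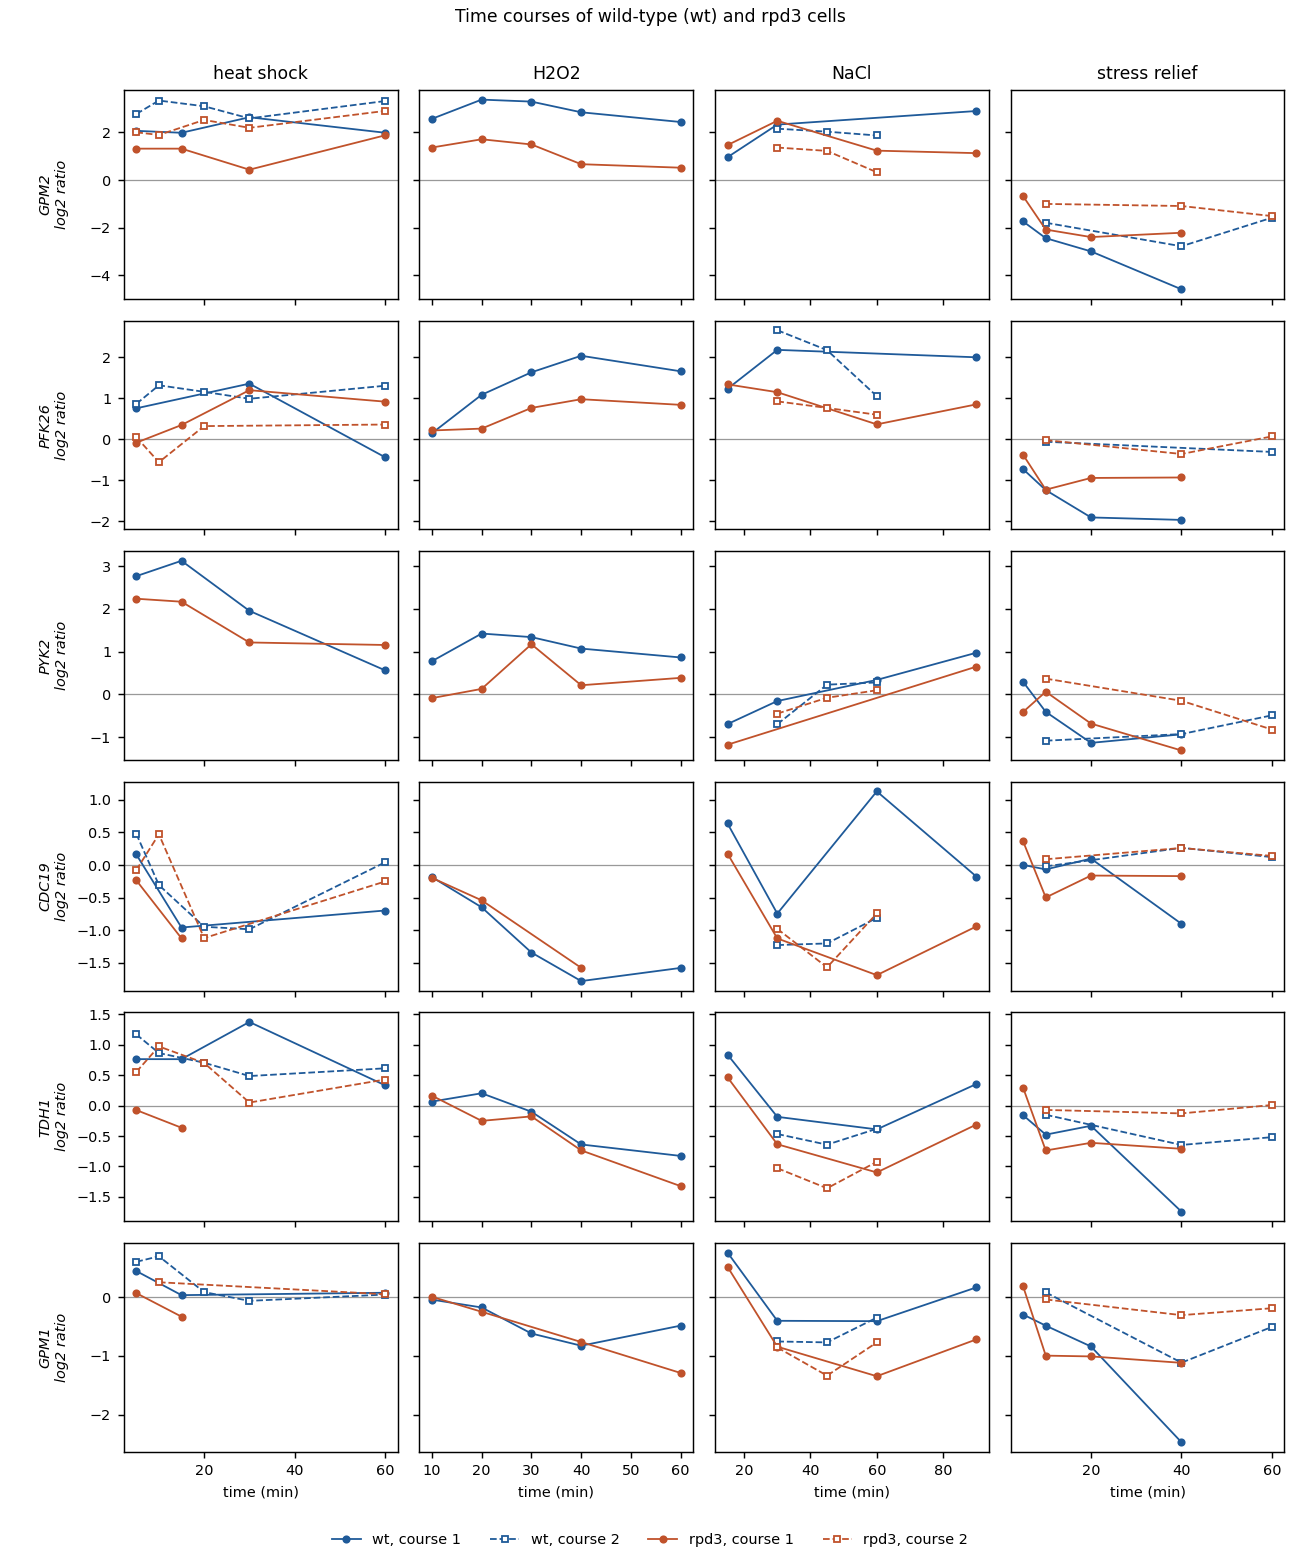
Log2 ratio against minutes after the shift for 6 members in wild type and rpd3Δ under each stress, with 1 line per time series (solid for the first, dashed for the second). In H2O2 the rpd3Δ line of GPM2 runs between 0.52 and 1.71 and the wild-type line between 2.43 and 3.37.

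In heat shock the GPM2 ratio was lower in rpd3Δ at 9 of 9 matched times, by 0.11 to 2.20 on the log2 scale, with rpd3Δ ratios from 0.43 to 2.90. The mean difference of −0.83 (SE 0.31) did not pass, and neither did that of PFK26 (−0.66). Of 4 members tested 0 passed in limma (adjusted p = 0.116 for GPM2), although both of these had an unadjusted p under 0.05, where 10.7% of 4547 genes were called. Arrays of the same time series deviated together in both strains, and with the series as a block GPM2 was called lower (−0.83, SE 0.20, limma adjusted p = 0.0245), the 1 call among the 4 members, with 12.6% of genes called. PFK26 was lower in rpd3Δ at 6 of 7 matched heat shock times. By the labels the second-series reference was at 30°C for rpd3Δ and 25°C for wild type. Strain and starting temperature cannot be told apart in that series or in the tests that include it. Within the first series the mean difference was −0.93 for GPM2 (lower at 4 of 4 times) and 0.12 for PFK26 (2 of 3). Within the second series these were −0.72 (5 of 5) and −1.11 (4 of 4).

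In NaCl 3 of 8 members tested were lower in rpd3Δ than in wild type, TDH1, TDH2 and PFK26, against 12.7% of 5003 genes called. TDH1 in the first series read 0.84, −0.18, −0.39 and 0.35 in wild type at 15, 30, 60 and 90 min, and 0.46, −0.64, −1.10 and −0.31 in rpd3Δ. In the second series it read −0.47, −0.64 and −0.38 at 30, 45 and 60 min in wild type, and −1.03, −1.36 and −0.92 in rpd3Δ. TDH1, TDH2 and GPM1 were each lower in rpd3Δ at 7 of 7 matched times, although the ranges over all times overlapped. The mean differences were −0.58 (SE 0.13, limma adjusted p = 0.0302) for TDH1, −0.54 (adjusted p = 0.0342) for TDH2, −0.53 (adjusted p = 0.0565, not called) for GPM1 and −0.88 (SE 0.15, adjusted p = 0.0162) for PFK26. Without the wild-type array at 60 min of the first NaCl series, an omission chosen after seeing the data, the calls of TDH1 (limma adjusted p = 0.0526) and TDH2 (adjusted p = 0.059) were lost. GPM1 (−0.53, limma adjusted p = 0.0864) stayed uncalled. CDC19 was uncalled both ways, at −0.41 (limma adjusted p = 0.281) without the array and −0.61 (adjusted p = 0.307) with it. PFK26 was not measured on that array, so its unchanged difference (−0.88, limma adjusted p = 0.0174) does not test its call. All 3 calls were lost without either rpd3Δ series or without the second wild-type series, with limma adjusted p between 0.0614 and 0.21, and TDH1 (adjusted p = 0.131) and TDH2 (adjusted p = 0.166) were lost without the first wild-type series. PFK26 also lost its call after scaling of the arrays (−0.44, adjusted p = 0.125). GPM2 was lower in rpd3Δ at 4 of 6 matched NaCl times and was not called, but with the series as a block it was (−0.77, limma adjusted p = 0.0451), beside TDH1, TDH2 and PFK26 and 14% of genes.

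Stress relief reversed the sign of the GPM2 ratio. The 7 wild-type ratios ran from −4.58 to −1.58 with a median of −2.44, and the 7 rpd3Δ ratios ran from −2.39 to −0.68 with a median of −1.51. All 14 were below 0, and the rpd3Δ ratio was the higher at 7 of 7 matched times, by 0.07 to 2.37. The lowest wild-type value was the 40 min array of the first series, which stood apart for several members. Without a block no gene reached the thresholds in stress relief: 0% of 5330 genes were called in wild type and 0% in the comparison of rpd3Δ with wild type, while limma gave an unadjusted p under 0.05 for 1476 and 678 of them. Among 10 members tested 0 were called in either comparison, with 4 in wild type and 0 between strains at an unadjusted p under 0.05. For GPM2 the wild-type mean was −2.42 (SE 0.28, limma adjusted p = 0.025, threshold 0.01) and −2.24 (adjusted p = 0.0432) without the array that stood apart. PFK26 averaged −1.11 (limma adjusted p = 0.126), GPM1 −0.73, PYK2 −0.60 and TDH1 −0.50, and none of them passed. Without that array, an omission chosen after seeing the data, the same means were −0.90, −0.59, −0.60 and −0.39, and again none passed. TDH2 averaged −0.53 with that array and −0.37 without it, and passed in neither case. The series of both strains deviated together in stress relief, and the outcome depended on whether the series entered as a block. With the block GPM2 (−2.30, limma adjusted p = 0.00122) and GPM1 (−0.64, adjusted p = 0.00631) were called lower in wild type, 2 of 10 members, where 8.63% of genes were called. Between strains GPM2 was then called higher in rpd3Δ (0.87, SE 0.16, limma adjusted p = 0.0483), 1 of 10 members against 3.06% of genes. Without a block this difference was 0.87 (limma adjusted p = 0.427), and 0.69 (adjusted p = 0.401) without the array that stood apart. The fit with the block was not repeated without that array.

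The dehydrogenase genes TDH1, TDH2 and TDH3 showed small ratios in wild type. In the first 2 heat shock series TDH1 ran from 0.33 to 1.37 and TDH2 from 0.02 to 1.11 in wild type, and all 9 arrays were above 0 for each gene. With means of 0.78 and 0.61 neither passed the wild-type threshold of 0.01 (limma adjusted p = 0.0319 and 0.0251). In the series with DMSO the wild-type ratios at 5, 15 and 30 min were −0.23, −0.03 and −0.50 for TDH1 and −0.34, −0.27 and −0.98 for TDH2, all below 0. The sign therefore differed between the DMSO series and the wild-type series without DMSO, and they were not compared by a test. The dyes of the DMSO series were also assigned the other way, so DMSO, dye and series cannot be told apart. In wild-type H2O2 TDH1 read 0.07 at 10 min and −0.83 by 60 min, and TDH2 −0.09 and −1.46. At 30 min TDH1 averaged 0.40 and was not called (limma adjusted p = 0.0305). TDH2 was measured on too few arrays to be tested there, and averaged −0.26 with the looser filter described with the enolases. TDH3, the major dehydrogenase gene, was measured on 6 wild-type arrays at 30 min of H2O2, with ratios from −0.33 to 0.40.

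The enolase genes ENO1 and ENO2 were measured less often than all other members but TDH3. At 30 min of H2O2 ENO1 ran from −0.51 to 0.46 on 6 wild-type arrays and ENO2 from −0.88 to 0.46 on 7, so both straddled 0. Genes measured on at least 50% of arrays were then admitted, a filter added after seeing the data. Without a block, neither enolase gene passed in wild type or differed from wild type in any mutant strain where it could be tested. With the replicate number as a block at 30 min of H2O2, ENO2 was called lower in wild type (−0.33, limma adjusted p = 0.00882). ENO2 was then called higher in pho23Δ (0.76, adjusted p = 0.0265), msn2Δ msn4Δ (0.95, adjusted p = 0.017) and the triple mutant (0.65, adjusted p = 0.0392). It was not called in rpd3Δ, rco1Δ or ume6Δ. The shares of all genes called are given with the block below. ENO1 and ENO2 separated in the second NaCl series. At 30, 45 and 60 min of that series wild-type ENO1 read −0.09, −0.14 and −0.12 and ENO2 read −1.38, −1.13 and −0.86. The rpd3Δ ratios at those times were −0.40, −0.78 and −0.57 for ENO1 and −1.09, −1.72 and −1.29 for ENO2, so ENO2 was the lower of the pair in both strains. In the first series, whose dyes were assigned the other way, the genes lay closer together where both were measured. There ENO1 and ENO2 read 0.81 and 0.85 at 15 min and −0.10 and −0.38 at 90 min in wild type, and −0.85 and −0.83 at 30 min in rpd3Δ. Dye and series cannot be told apart in this difference.

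Differences between isozymes on the same array placed these patterns on one scale. Over the 106 stress and relief arrays GPM2 minus GPM1 had a median of 2.17 on 93 arrays, with 79 above 0, and the 14 below 0 were the stress relief arrays. PYK2 minus CDC19 had a median of 1.03 on 76 arrays, with 58 above 0. TDH1 minus TDH2 had a median of 0.14 on 88 arrays, of which 78 lay within 0.5 of 0, and TDH1 minus TDH3 a median of −0.05 on 54 arrays, of which 45 lay within 0.5. ENO1 minus ENO2 had a median of 0.05 on 61 arrays, with 45 within 0.5, and a median of 0.74 on 5 wild-type NaCl arrays. The mutase and pyruvate kinase pairs were thus far apart on most arrays and the dehydrogenase and enolase pairs close together on most. Exceptions in wild type included H2O2 for TDH1 minus TDH2, which was 0.16 to 0.78 and above 0 on 8 of 8 arrays, and the second NaCl series for the enolases. Some single wild-type arrays also stood apart, with ENO1 minus ENO2 up to 0.83 in H2O2 and TDH1 minus TDH3 down to −1.61 in stress relief. In H2O2 the gap between GPM2 and GPM1 was 2.61 to 4.07 on 10 wild-type arrays and 1.36 to 1.96 on 6 rpd3Δ arrays, which did not overlap. In stress relief it was −2.15 to −1.07 in wild type and −1.38 to −0.78 in rpd3Δ, which overlapped.

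**Figure D4:**
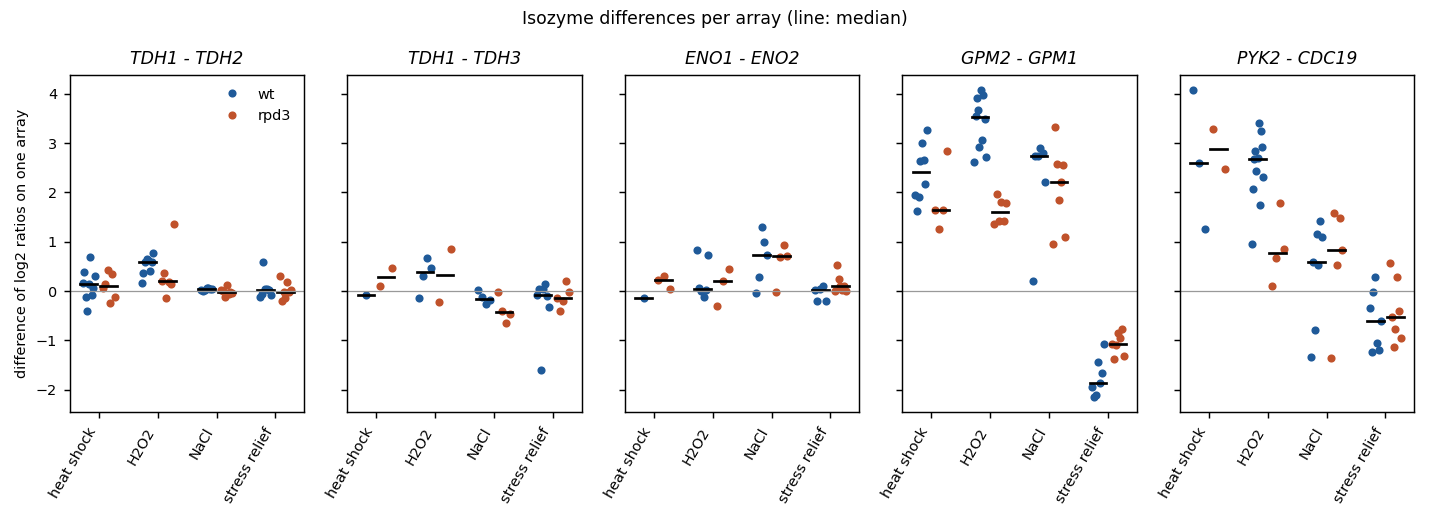
Difference in log2 ratio between isozymes of 1 enzyme on the same array, by stress, with 1 point per array of wild type or rpd3Δ and a line at each median. GPM2 minus GPM1 lies above 0 on the stress arrays shown and below 0 on the stress relief arrays, and most points of TDH1 minus TDH2 lie within 0.5 of 0.

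The unstressed strains were compared directly on 3 arrays, and no member was measured on enough of them to be tested. As log2 ratios of rpd3Δ over wild type, PYK2 read −1.35 and −1.41 on the 2 arrays that measured it. GPM2 read −1.09 on the array that measured it. CDC19 read −0.42 and −0.49, TDH1 −0.32 and −0.36, and PFK26 −0.12 on 1 array. All of these members were below 0 where they were measured, whereas TDH3 read 0.14 and −0.12. No member was measured under both dye assignments, and GPM2 was read on the array with the opposite assignment. Strain and dye therefore cannot be told apart for the members here. Of the 4426 genes tested in limma 3.5% were called. With the filter of 50%, PYK2 averaged −1.38 and did not pass (limma adjusted p = 0.0582).

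Trichostatin A and the plasmid strains were each measured on single arrays without a test. During heat shock the GPM2 ratios at 5, 15 and 30 min were 2.46, 3.34 and 3.29 with DMSO and 1.86, 2.66 and 2.44 with trichostatin A, lower with the inhibitor at 3 of 3 times, by 0.59, 0.68 and 0.85 on the log2 scale. PFK26 differed by 0.32, −0.23 and −0.12 and PYK2 by −0.26 and 0.03 at the later times, so neither was lower throughout. At 20 min of heat shock GPM2 read 1.89 in rpd3Δ cells with pRS-RPD3 and 1.05 with the empty vector. At 30 min of H2O2 it read 1.10 with pRS-RPD3 and 0.94 with pRS-rpd3H150:151A, both below the 30 min wild-type range in rich medium.

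The ratios of some members varied together across arrays. Among TDH1, TDH2, TDH3, ENO1, ENO2 and GPM1 the Pearson correlation of the 15 pairs ran from 0.62 to 0.90 over 54 to 94 shared arrays. Without stress relief and the unstressed arrays these 15 pairs ran from 0.69 to 0.90. GPM2, PYK2 and PFK26 correlated with each other between 0.47 and 0.75 over all arrays, and pairs of 1 of these and 1 other member ran from −0.32 to 0.44. The correlations among the 3 genes depended on stress relief: without it and the unstressed arrays GPM2 gave 0.436 with PYK2 and 0.371 with PFK26, PYK2 and PFK26 gave 0.156, and pairs with other members reached 0.348 (TDH1 with GPM2). These arrays share strains, stresses and time series, so the values are a description of this collection. CDC19 correlated with the first 6 genes less tightly over all arrays, the lowest of the 21 pairs of these 7 genes being 0.39.

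**Figure D5:**
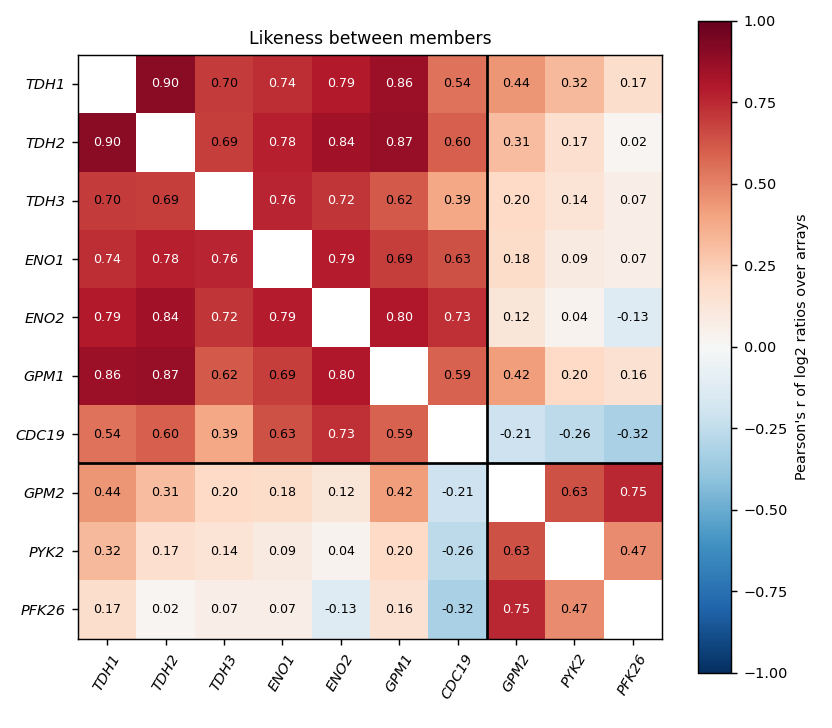
Pearson correlation of log2 ratios between members over the arrays that measured both, on a color scale from −1 to 1. TDH1 with TDH2 is the highest pair at 0.90, pairs among GPM2, PYK2 and PFK26 lie between 0.47 and 0.75 and pairs of these with other members between −0.32 and 0.44, over all arrays including stress relief.

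Over all genes that shared at least 87 arrays with a member, the most similar patterns were often those of other members. TDH1 and TDH2 were closest to each other (r = 0.902, 90 arrays), GPM1 was next for both (0.856 and 0.871), and ADH2, the glucose-repressed alcohol dehydrogenase, followed at 0.766 and 0.721. For GPM1 the order was TDH2, TDH1 and ADH2 (0.736). GPM2 was most like YDC1, a ceramidase gene (0.909), DDR2, a multistress response gene (0.896), and UGA1, which encodes an aminotransferase of 4-aminobutyrate breakdown (0.880). PFK26 was most like DCS1 (0.879), which encodes a hydrolase of messenger RNA caps, MRP8 (0.860) and UBC8 (0.852), a ubiquitin-conjugating enzyme gene. PYK2 was most like HSP26 (0.770), encoding a small heat shock protein, INM2 (0.753), an inositol monophosphatase gene, and GSY2 (0.742), which encodes glycogen synthase. CDC19 was most like the aldolase gene FBA1 (0.811), YAL064W-B (0.741) and STB6 (0.734). TDH3, ENO1 and ENO2 were measured on too few arrays for this comparison.

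Of 24 other genes of the pathway and its regulators, from hexokinases to alcohol dehydrogenase, 15 could be tested at 30 min of H2O2. In wild type 3 passed higher and 5 lower, where 67.7% of all genes passed, with a median of −0.23, against a median of 0.40 for the 7 members and 0.02 for all genes. The higher ones were the hexokinase gene HXK1 (3.19), the glucokinase gene GLK1 (3.51) and FBP26 (2.82), whose product degrades the activator that Pfk26p makes. The lower ones were HXK2, PGI1, PFK2, FBA1 and the transcription factor gene RAP1 (−1.0). In NaCl the same 3 genes passed higher, HXK1 at 3.47, GLK1 at 4.09 and FBP26 at 1.60, of 16 tested, and PDC1, the main pyruvate decarboxylase gene, was lower at −0.99, against 27.4% of all genes. In heat shock 2 of 12 passed higher, HXK1 (3.05) and FBP26 (1.11), and HXK2 was lower (−0.68), against 21.3% of all genes.

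In rpd3Δ at 30 min of H2O2 4 of the 15 were lower than in wild type, HXK1 (−1.79), GLK1 (−1.86), PFK2 (−0.64) and FBP26 (−1.24), and 0 were higher, where 22.9% of all genes were called. The medians of the difference were −0.34 for the list, −0.48 for the 7 members and 0.02 for all genes. GLK1 and FBP26 were also lower in pho23Δ (−1.84 and −1.0), in the triple mutant (−3.16 and −1.21) and in rpd3Δ under NaCl (−2.12 and −0.89). In ume6Δ FBP26 alone passed (−1.10), 1 of 15 tested, where 0.735% of all genes were called. In heat shock 2 of 12 differed between rpd3Δ and wild type, against 10.7% of all genes: HXK1 was higher in rpd3Δ by 1.07 (limma adjusted p = 0.046) and FBP26 lower (−0.77, limma adjusted p = 0.0232). In rco1Δ (15 tested), msn2Δ msn4Δ (14) and H4KQ (15) 0 genes of this list passed in limma, with 2, 7 and 6 at an unadjusted p under 0.05. Of all genes 0.505%, 4.48% and 1.24% were called in these comparisons. In stress relief 0 of 18 passed in wild type and 0 between strains, with 5 and 2 at an unadjusted p under 0.05. FBP26 was 1 of 11 tested that differed between the unstressed strains (0.75, limma adjusted p = 0.0485), where 3.5% of all genes were called.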

How the data were processed

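Two-color spotted DNA microarrays were hybridized with cDNA from 2 samples of yeast cells in each case. The deposited values are log2 ratios of each array, which the authors made from scanned intensities. Their normalization and the direction of the ratio are not given in the sources used here, and the mean of each array was near 0. Arrays of the same group labelled with opposite dyes correlated positively, from 0.28 upward, so no array was turned. In heat shock and stress relief no arrays of the same strain and treatment had opposite dyes.

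Least squares models gave each combination of strain and time, or each strain at 30 min of H2O2, its own mean. Genes with values on under 80% of a model's arrays were left out, and H2O2 groups needed at least 2 measured arrays. Variances were moderated with limma 3.58.1 in R 4.3.3 and p-values adjusted by Benjamini-Hochberg over all genes tested. Wild-type time series were tested with a moderated F test of all time points, and their direction is that of the mean. Other comparisons used the moderated t statistic. The threshold was 0.01 for wild type and 0.05 between strains. Tables and figures were made with Python 3.11.15. The fits were tested on simulated data. Named genes are the 10 members, the deleted genes, 24 pathway genes and the 3 genes most correlated with each member. The members and lists were chosen with earlier results of these data known. A promoter motif search was not analysed here. The supplement names the H2O2 replicates of wild type, rpd3Δ, pho23Δ and H4KQ as biological. For other arrays the sources used here do not say, and there p-values measure the spread between arrays. The number of arrays limits the precision. In the time series the replicate number is that of the series in the titles, and deviations of wild type and rpd3Δ from their means correlated at all 7 shared times (0.15 to 0.64), so values with the series as a block stand beside results it changed. Alternatives covered the centering and scaling of arrays, the filter, the threshold, a block and omitted replicates. A dye term was a further alternative in the H2O2, NaCl and unstressed strain comparisons.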

Additional observations from a re-analysis of the deposited data

Results flagged for a closer look

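Of 15 combinations of a member and a group of 4 to 10 arrays tested for a single distant value, 2 had one, where chance gives about 1 in 20. They came from 2 groups, wild type and ume6Δ at 30 min of H2O2, so the members share arrays. In ume6Δ at 30 min of H2O2 PYK2 read 0.333 on replicate 4, against 1.51 to 1.58 on the other 3 arrays. That array had an SD over all genes of 0.64, against 1.00 to 1.22 for the others. In wild type at 30 min of H2O2 PFK26 read 0.801 on replicate 8, below the other 7 arrays, and without that replicate PFK26 passed as lower in ume6Δ.

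Several members moved in opposite directions in 2 groups, some of only 2 arrays, and these differences were read from values with no separate test. The share of all genes that did so was not computed, so these differences are not read as particular to the members. TDH1 was below 0 on all 3 H4KQ arrays and above 0 on all 3 NSY429 arrays at 30 min of H2O2, a difference of −0.57. ENO1 was below 0 on 3 H4KQ arrays and above 0 on the 2 NSY429 arrays that measured it, a difference of −1.06. With the filter of 50%, chosen after seeing the data, limma gave adjusted p = 0.38 for TDH1 and 0.11 for ENO1. In wild type at 30 min TDH1 was above 0 on both heat shock arrays and below 0 on both NaCl arrays, 1.25 apart in the mean, and TDH2 likewise, 1.14 apart. PYK2 at 30 min was above 0 on 8 wild-type H2O2 arrays and below 0 on both NaCl arrays, with means of 1.87 and −0.43, 2.30 apart. The heat shock, H2O2 and NaCl difference was not tested.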

How the results depend on the processing

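Over all alternatives no called member changed sign, and of the values recomputed for called members 225 kept their call and 23 lost it. A stricter filter, genes measured on every array, left PFK26 the 1 member tested in H2O2, so the calls became 1 in wild type, pho23Δ and the triple mutant and 0 in rpd3Δ, msn2Δ msn4Δ and the triple mutant against msn2Δ msn4Δ. In wild-type NaCl it gave 0. Scaling each array to one spread gave 0 in pho23Δ, 2 (GPM2, CDC19) and 1 (GPM2) for the triple mutant against msn2Δ msn4Δ and against rpd3Δ, and 1 (GPM2) in wild-type stress relief. For H4KQ, median centering with or without scaling gave 1 (GPM2). A threshold of 0.05 gave 4 of 4 tested in wild-type heat shock, 6 of 8 in NaCl and 1 of 10 (GPM2) in stress relief. Counting members over 1.5-fold in one direction in both series gave 5 of the 10 in each of these. Shares of all genes called are not set beside the counts in this paragraph, so they are not read as results about the members. Omitting the NaCl array that stood apart, chosen after seeing the data, left 1 (PFK26, which that array did not measure) lower in rpd3Δ.

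In the time series the replicate block is the series. It gave 1 call in rpd3Δ heat shock, 2 in wild-type stress relief and 1 between strains there, with 12.6%, 8.63% and 3.06% of all genes called. At 30 min of H2O2 the numbers did not pair the arrays: 25 pairs correlated between −0.43 and 0.31, 7 of them over 0.1. The replicate block there gave 4 in pho23Δ (GPM2, PYK2, PFK26, ENO2), 3 in msn2Δ msn4Δ (GPM2, CDC19, ENO2) and 1 in H4KQ (GPM2). Of all genes 15.8%, 5.49% and 0.798% were called in these comparisons. The block also added ENO2 in wild type and in the triple mutant, with 65.4% and 26% of all genes called. No called member lost its call with a block.

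Leaving out single replicates, members called ranged from 0 to 1 in wild-type heat shock, 1 to 3 in rpd3Δ, 1 to 2 in pho23Δ, 0 to 1 in ume6Δ, 0 to 2 in msn2Δ msn4Δ and 0 to 1 in the triple mutant against msn2Δ msn4Δ, all in H2O2 but the first. They ranged from 1 to 2 in wild-type NaCl, 0 to 1 for rpd3Δ in NaCl and 0 to 3 in the unstressed comparison. The 3 there were TDH1, CDC19 and PYK2 without replicate 3, on arrays that shared a dye assignment. Without wild-type replicate 8, PFK26 was called in ume6Δ and GPM2 in msn2Δ msn4Δ. Where 2 arrays measured a gene, as for PYK2 in rpd3Δ, omitting 1 left it untested. Calls over all genes also moved without single replicates, so these ranges are not read as results about the members.

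Calls over all genes moved by over 1.5 times in 81 recomputations and stayed within that in 142. Without single replicates wild-type heat shock went from 967 to between 135 and 409, wild-type NaCl from 1372 to between 444 and 685, and rpd3Δ in heat shock and NaCl from 485 and 637 to as few as 0. In wild-type stress relief the block gave 460 and a threshold of 0.05 gave 374 against 0. The cause was not tested.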
